A study of Mus musculus with 12 samples.

Results

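The 10 genes described here, Fos, Fosb, Junb, Egr1, Egr3, Egr4, Arc, Npas4, Nr4a1 and Ier2, are immediate early genes that neurons switch on when they are active. They were chosen by name, with earlier results of these data known. All 10 were found among the 38924 genes of the deposited tables and among the 17980 that passed the filter on low counts. They were measured by RNA sequencing of polyadenylated RNA from whole spinal cord of 12 mice aged 8 weeks. The P278KY group held 3 females (mice 3, 4 and 9) and 3 males (mice 6, 7 and 8), each with 1 copy of Gars carrying the P278KY mutation. Gars encodes glycyl-tRNA synthetase, the enzyme that loads glycine onto its tRNA, and dominant mutations in it cause Charcot-Marie-Tooth neuropathy. The wild type (WT) group held 3 females (mice 1, 2 and 10) and 3 males (mice 5, 11 and 12). The labels give the strain background B6J;CAST for every mouse of both groups. No stimulus is given in the labels, which does not show that there was none. The values are levels in the animals as they were killed, and the mutation was in the whole animal and not in 1 cell type. The labels count each mouse as a separate animal.

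Immediate early genes are transcribed within minutes of a signal, before any new protein has to be made. In neurons, calcium that enters through NMDA receptors and L-type channels activates CaM kinases and the ERK pathway, and these act on the transcription factors CREB and SRF at the early gene promoters. Most of the early genes encode transcription factors themselves, which then switch on slower genes, while Arc encodes a protein that acts at synapses. In the spinal cord, Fos is widely used as a mark of neurons that have responded to painful or motor input. Several of the 10 genes, among them Junb, Egr1, Nr4a1 and Ier2, also respond to growth factors and stress in glia, vessels and muscle.

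The promoters of 6 of the 10 genes were present in the RefSeq promoter table (GRCm38.p6), and the 250 bases before the start of each were searched for sites of the factors named above. All 6 held the core TGACG of the CREB binding site on 1 strand or the other, as did 17.8% of all 32851 promoter windows of that length in the table. The stretches around the core nearest the start are shown because they are the sequence feature that these 6 promoters shared. They are written 5′ to 3′ on the strand of the gene, with the core in capitals, as TGACG or, where it lies on the other strand, as CGTCA.
Fos (chr12:85473812-85473840, plus strand): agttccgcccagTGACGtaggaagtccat
Fosb (chr7:19310089-19310117, minus strand): tggagttgcgggTGACGcaagcgcggggg
Junb (chr8:84978838-84978866, minus strand): gcttcctgacagTGACGcgagccgcctcc
Egr4 (chr6:85513682-85513710, minus strand): tttggtcatttaCGTCAcggcgccagggc
Npas4 (chr19:4990124-4990152, minus strand): gacgtcacgggaTGACGtcggaagtctgg
Nr4a1 (chr15:101266794-101266822, plus strand): cccctctccatgCGTCAcggagcgcttaa
The core began 40 bases before the start in Nr4a1, 60 in Fosb, 66 in Fos, 106 in Junb, 109 in Egr4 and 169 in Npas4. These starts are those of the RefSeq promoter table and can differ from the ends of the gene positions given below, which are from GENCODE. The windows of Nr4a1 and Npas4 lie inside those gene positions. Nr4a1 held 4 cores in its window, Fos, Egr4 and Npas4 held 2 each, and Fosb and Junb held 1 each. The other core of Npas4, CGTCA, also lies in its stretch above, in lower case. The full palindrome TGACGTCA, which contains the core, was in 0 of the 6 windows and in 1.55% of all windows. The site of EGR factors, GCGGGGGCG or GCGTGGGCG on either strand, was in 2 of the 6, Fosb and Nr4a1, and in 3.06% of all windows. The AP-1 site TGANTCA on either strand was in 0 of the 6 and in 6.75% of all windows, and the CArG box bound by SRF was in 0 of the 6 and in 1.47%. A match is a description of the letters and was not tested as a binding site. Sites farther than 250 bases from the start were not searched, so a count of 0 holds for these windows only. The whole window of Fos (chr12:85473640-85473889, plus strand), with both of its cores in capitals, read as follows.
Fos promoter: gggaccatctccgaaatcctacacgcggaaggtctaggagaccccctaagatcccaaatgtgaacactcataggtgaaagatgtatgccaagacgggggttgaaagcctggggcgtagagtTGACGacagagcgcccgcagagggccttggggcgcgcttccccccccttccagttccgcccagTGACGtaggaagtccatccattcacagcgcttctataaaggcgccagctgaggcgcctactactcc

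All 12 libraries were deep, with 26982140 to 39339999 expected counts. Transcripts of Gars were at 138.0 to 145.0 CPM (reads scaled to a common library size) in P278KY mice, with a median of 139.3, and at 118.2 to 137.8 CPM in WT mice, with a median of 128.3. Reads of the mutant and the WT allele are counted together. Neuronal markers were abundant in every library, with a summed level over 16 markers of 8589 to 9091 CPM in P278KY mice and of 8869 to 11365 CPM in WT mice. Libraries differed in RNA of adjoining tissue. The 18 skeletal muscle genes summed to 1779 to 12065 CPM in mice 1 to 4, all females and highest in WT female 1, and to 118.3 to 388.0 CPM in mice 5 to 12. The mean log2 CPM of 13 sensory ganglion markers was 3.99, 3.61 and 3.36 in mice 7, 10 and 11 and at most 1.97 in the others. The 17 clock genes summed to 907.9 to 965.4 CPM in mice 9 to 12 (P278KY female 9, WT female 10, and males 11 and 12 of the WT group) and to 1092 to 1178 CPM in mice 1 to 8, and that set was formed after its clock genes had been seen.

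The level of the 10 genes in cord spanned 25.4-fold on the TPM scale, which corrects for transcript length. Egr1 had the highest mean, 18.8 ± 2.96 TPM, followed by Arc with 17.5 ± 2.77, Fos with 16.0 ± 2.15, Junb with 13.4 ± 1.30 and Nr4a1 with 11.1 ± 1.63 TPM (SD, n = 12). Ier2 had a mean of 7.69 ± 1.24 TPM, Npas4 of 3.02 ± 0.263, Egr3 of 2.43 ± 0.405, Fosb of 1.2 ± 0.231 and Egr4 of 0.743 ± 0.172 TPM. Of the 9 neighbouring pairs in this order, 5 had ranges of mean ± SD that overlapped: Egr1 and Arc, Arc and Fos, Fos and Junb, Junb and Nr4a1, and Npas4 and Egr3. Within single mice the order was nonetheless firm further down: Junb lay above Nr4a1, Nr4a1 above Ier2, Ier2 above Npas4, Egr3 above Fosb and Fosb above Egr4 in all 12 mice. Egr1 lay above Arc in 9 of the 12. The 10 genes were low to middling among the transcripts of cord. Of the tested genes, 57.7% had a mean TPM below that of Egr1 and 8.16% below that of Egr4.

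**Figure D1:**
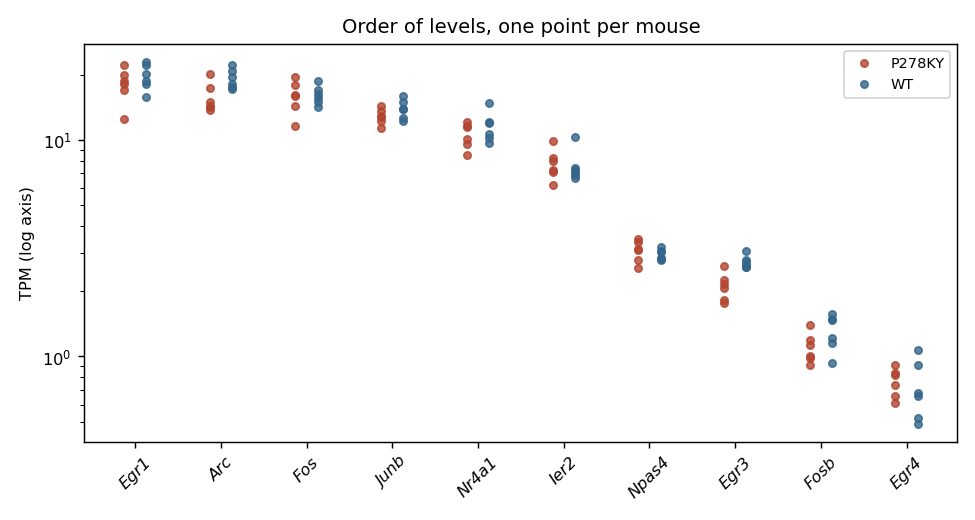
TPM of the 10 immediate early genes on a log axis, ordered by mean, with 1 point for each of 6 P278KY and 6 WT mice. Mean levels run from 18.8 TPM for Egr1 to 0.743 TPM for Egr4, and the genotypes overlap for most genes.

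Between the genotypes, Arc and Egr3 fell in P278KY cord and the other 8 genes did not pass the threshold. Arc fell to 0.776 of its WT level and Egr3 to 0.732. The fitted change was below 0 for 9 of the 10 genes, with a median log2 change of -0.20, where 51.1% of all tested genes lay below 0 and their median was 0.00. The 2 genes called lower of 10 stand beside 2.95% of all tested genes called lower and 5.32% called in either direction (edgeR quasi-likelihood test, Benjamini-Hochberg adjusted p under 0.05). At an unadjusted p under 0.05, 4 of the 10 were changed, Arc, Egr3, Junb and Fosb, and all 4 lay lower, while 20.2% of all tested genes had such a p and 10.4% had it with a lower level. The 10 genes were chosen with earlier results of these data known, so the shares over all tested genes are a description only. Since the tissue was whole cord, fewer cells that express a gene and less RNA per cell cannot be told apart. Motor neuron markers fell in the same mice: 7 of 11 were called lower, and their summed level was 238.7 to 264.5 CPM in P278KY mice and 350.9 to 437.2 CPM in WT mice. Of the 16 general neuronal markers 3 fell and 1 rose. Other lists went up: 2 of 12 dorsal horn markers and 2 of 12 astrocyte markers were called higher, and 0 of either list lower. Of the 12 markers of Schwann cells, which lie in the roots, 3 were called lower. They summed to 12669 to 16539 CPM in P278KY mice and 15539 to 20390 CPM in WT mice. This sum includes Mbp, which is also in the oligodendrocyte list, so it does not measure root RNA alone. The mean log2 CPM of the 12 was 4.79 to 6.08 in P278KY mice and 6.08 to 6.63 in WT mice. Of the 13 sensory ganglion markers 3 were called lower and 1 higher. Their sum was 1188 to 1307 CPM in P278KY mice and 1349 to 1978 CPM in WT mice, without overlap. Their mean log2 CPM overlapped widely, at 1.42 to 3.99 in P278KY mice and 1.47 to 3.61 in WT mice. The ganglion list shares Tubb3 with the neuronal list and Prph, Isl1 and Calca with the motor neuron list. The part of these markers in the change of Arc and Egr3 was not tested.

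**Figure D2:**
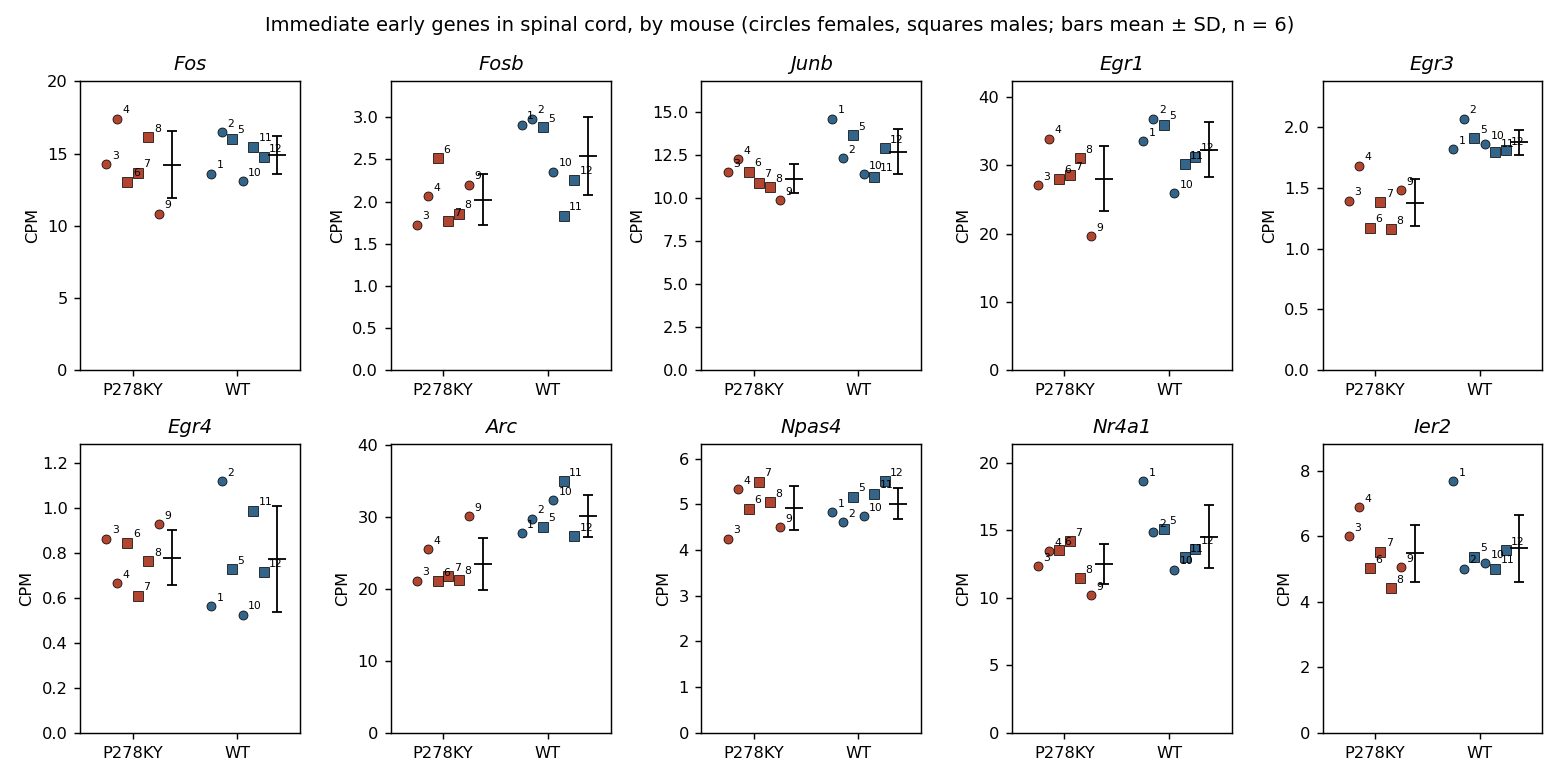
CPM of each gene in each mouse, with P278KY left of WT, circles for females, squares for males, mouse numbers beside the points and bars for mean ± SD (n = 6 each). For Egr3 the 6 P278KY mice, at 1.16 to 1.68 CPM, all lie below the 6 WT mice, at 1.79 to 2.07 CPM, and for Arc 5 of 6 P278KY mice lie below every WT mouse.

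Arc encodes a protein made at active synapses that takes AMPA receptors off the surface and forms virus-like capsids. The gene (ENSMUSG00000022602) lies on chromosome 15, 74669083 to 74672570, minus strand (GRCm38). It was at 21.1, 25.5 and 30.1 CPM in P278KY females 3, 4 and 9 and at 21.1, 21.8 and 21.3 CPM in P278KY males 6, 7 and 8, against 27.7, 29.8 and 32.3 CPM in WT females 1, 2 and 10 and 28.6, 34.9 and 27.3 CPM in WT males 5, 11 and 12. Of the P278KY mice 5 were below the lowest WT mouse, and P278KY female 9 was the exception, with a level that only WT female 10 and WT male 11 exceeded. The means were 23.5 ± 3.65 CPM in P278KY mice and 30.1 ± 2.96 CPM in WT mice (SD, n = 6 each). The log2 change was -0.37 (SE 0.09, adjusted p = 0.0398), and the exact two-sided permutation p over the 12 mice, which takes no account of sex and is not adjusted, was 0.0130. Without P278KY female 9 the log2 change was -0.44 (adjusted p = 0.00607). That call and the one without WT female 1 (-0.40, adjusted p = 0.0237) were the only ones among the 12 fits with 1 mouse left out, and the adjusted p reached 0.0997 without P278KY male 6. The call was also lost without the filter on low counts (adjusted p = 0.0515), on log2(TPM + 1) (0.0727), without mice 1 to 4 (0.0623) and without mice 7, 10 and 11 (0.209).

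Arc was compared within the sets of mice 1 to 8 and mice 9 to 12. Among mice 1 to 8 it was at 21.1 to 25.5 CPM in the 5 P278KY mice and at 27.7 to 29.8 CPM in the 3 WT mice, with no overlap. Among mice 9 to 12 it was at 30.1 CPM in the single P278KY mouse and at 27.3 to 34.9 CPM in the 3 WT mice, which enclosed it. With this set as a further term in the model the log2 change was -0.29 (adjusted p = 0.0457), and without mice 9 to 12 it was -0.35 (adjusted p = 0.0768). The direction was thus the same, while a change inside mice 9 to 12 was not detectable with 1 P278KY mouse.

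Egr3 encodes a zinc finger factor of the EGR family, which is also known for its need in the development of muscle spindles. The gene (ENSMUSG00000033730) lies on chromosome 14, 70077203 to 70082614, plus strand. It was at 1.39, 1.68 and 1.48 CPM in P278KY females 3, 4 and 9 and at 1.17, 1.38 and 1.16 CPM in P278KY males 6, 7 and 8, against 1.82, 2.07 and 1.86 CPM in WT females 1, 2 and 10 and 1.91, 1.79 and 1.81 CPM in WT males 5, 11 and 12. The genotypes did not overlap over all mice, nor within females or within males. Egr3 was the only one of the 10 genes with all P278KY mice below all WT mice, a pattern that 2.0% of all tested genes had. Its fitted log2 change was -0.45 (SE 0.12, adjusted p = 0.0433), and a two-sided exact permutation test over mice gave p = 0.00216, the lowest value possible with 924 relabellings. Groups without overlap, in either direction, were seen for 3.73% of all tested genes.

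The Egr3 values rest on few reads. There were 35 to 53 counts per P278KY library, 263 in all, and 48 to 61 per WT library, 328 in all. Counting error alone would give a spread of 15.1% of the mean in P278KY mice and 13.5% in WT mice, and the observed spread was 14.3% and 5.46%, so the WT mice lay closer together than counting error alone would place them on average. On TPM values the genotypes touched, with P278KY mice at up to 2.61 TPM and WT mice from 2.59 TPM. The call was kept in 2 of the 12 fits with 1 mouse left out, those without WT female 1 (adjusted p = 0.0332) and without P278KY female 4 (adjusted p = 0.0455), and the adjusted p reached 0.107 without P278KY male 6. It was also lost by the Wald test of DESeq2 (adjusted p = 0.0583), without the filter (0.0966), without sex in the model (0.0520), without mice 1 to 4 (0.114), without mice 7, 10 and 11 (0.162), without mice 9 to 12 (0.361) and with mice 9 to 12 as a term (0.0800). The log2 change itself stayed between -0.50 and -0.42 in those 12 fits.

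The other 2 members of the EGR family among the 10 did not pass the threshold, and their difference from Egr3 was not tested. Egr1 (chromosome 18, 34859823 to 34864984, plus strand), the factor also called Zif268, was at 19.7 to 33.9 CPM in P278KY mice, with a median of 28.3, and at 25.9 to 36.8 CPM in WT mice, with a median of 32.4. The groups overlapped widely, and P278KY female 9 was the lowest mouse. The log2 change was -0.20 (SE 0.12, adjusted p = 0.403). Within the sets, the 5 P278KY mice among mice 1 to 8 were at 27.1 to 33.9 CPM against 33.5 to 36.8 CPM in the 3 WT mice, with a small overlap, and P278KY female 9 was at 19.7 CPM against 25.9 to 31.3 CPM in the 3 WT mice of its set. With the set as a further term, Egr1 had a log2 change of -0.34 (adjusted p = 0.0284), a call made under no other alternative. Egr4 (chromosome 6, 85511121 to 85513589, minus strand), a factor of the same family that is low in cord, was at 0.611 to 0.928 CPM in P278KY mice, with a median of 0.804, and at 0.526 to 1.12 CPM in WT mice, with a median of 0.722. The WT mice enclosed all P278KY mice. Its fitted log2 change was 0.01 (SE 0.22, adjusted p = 0.983), from 150 counts in the P278KY libraries and 134 in the WT libraries, so a change of the size seen in Egr3 was not detectable at this depth.

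The AP-1 genes encode partners that bind DNA in pairs, for example of 1 Fos and 1 Jun protein. Fos (chromosome 12, 85473890 to 85477273, plus strand), the first known of them, was at 10.8 to 17.4 CPM in P278KY mice, with a median of 13.97, and at 13.1 to 16.5 CPM in WT mice, with a median of 15.1. Both the highest and the lowest mouse were P278KY females, 4 and 9, and the log2 change was -0.07 (SE 0.10, adjusted p = 0.779). The observed spread of Fos was 16.3% of the mean in P278KY mice and 9.02% in WT mice, against 4.69% and 4.81% from counting alone.

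Fosb (chromosome 7, 19302696 to 19310051, minus strand) also gives rise to the long-lived form ΔFosB after repeated stimulation, which the gene counts do not separate. It was at 1.73 to 2.51 CPM in P278KY mice, with a median of 1.96, and at 1.83 to 2.98 CPM in WT mice, with a median of 2.62. All 6 P278KY mice lay below the WT median, and the groups overlapped. The log2 change was -0.32 (SE 0.15, adjusted p = 0.247). Among mice 1 to 8 the 5 P278KY mice, at 1.73 to 2.51 CPM, lay below the 3 WT mice, at 2.88 to 2.98 CPM. Among mice 9 to 12 the P278KY mouse, at 2.2 CPM, lay within the WT mice, at 1.83 to 2.35 CPM. Without mice 9 to 12 the log2 change was -0.57 and did not pass (adjusted p = 0.242).

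Junb (chromosome 8, 84974484 to 84978718, minus strand) encodes an early factor of the Jun family. It was at 9.87 to 12.3 CPM in P278KY mice, with a median of 11.2. In WT mice it was at 11.2 to 14.6 CPM, with a median of 12.6. All 6 P278KY mice lay below the WT median and 4 WT mice lay above every P278KY mouse. Its fitted log2 change was -0.19 (SE 0.08, adjusted p = 0.185). WT female 1, the library with the most muscle RNA, was the highest, and without it the log2 change was -0.14 (adjusted p = 0.275). Among mice 1 to 8 the P278KY mice, at 10.6 to 12.27 CPM, lay below the WT mice, at 12.33 to 14.6 CPM, and P278KY female 9, at 9.87 CPM, lay below the 3 WT mice of its set, at 11.2 to 12.9 CPM. With the set as a further term the log2 change was -0.25 (adjusted p = 0.0589). Jun, another gene of the same family, was at 55.2 to 79.6 CPM in P278KY mice and at 55.5 to 78.5 CPM in WT mice (log2 change -0.13, SE 0.09, adjusted p = 0.440).

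Npas4, Nr4a1 and Ier2 also stayed short of the threshold. Npas4 (chromosome 19, 4984355 to 4990316, minus strand), a factor known for responding to depolarisation and calcium rather than to growth factors, was at 4.25 to 5.5 CPM in P278KY mice, with a median of 4.97, and at 4.61 to 5.5 CPM in WT mice, with a median of 5.0. Its fitted log2 change was -0.03 (SE 0.08, adjusted p = 0.893), the smallest standard error of the 10 genes. The groups covered almost the same range, and the spread of 9.69% in P278KY mice and 6.81% in WT mice was close to the 7.96% and 8.29% that counting alone gives.

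Nr4a1 (chromosome 15, 101254269 to 101274795, plus strand), which encodes the orphan nuclear receptor Nur77, was at 10.2 to 14.2 CPM in P278KY mice, with a median of 12.9, and at 12.1 to 18.6 CPM in WT mice, with a median of 14.2. WT female 1 was again the highest and P278KY female 9 the lowest. The log2 change was -0.21 (SE 0.11, adjusted p = 0.297), and without WT female 1 it was -0.12 (adjusted p = 0.457). Among mice 1 to 8 the P278KY mice, at 11.5 to 14.2 CPM, lay below the WT mice, at 14.9 to 18.6 CPM, and P278KY female 9, at 10.2 CPM, lay below the WT mice of its set, at 12.1 to 13.6 CPM. With the set as a further term the log2 change was -0.32 (adjusted p = 0.0436), a call made under no other alternative.

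Ier2 (chromosome 8, 84661331 to 84662852, minus strand), an early gene for a nuclear protein that is induced in many cell types, was at 4.41 to 6.88 CPM in P278KY mice, with a median of 5.29, and at 5.01 to 7.67 CPM in WT mice, with a median of 5.27. WT female 1, at 7.67 CPM, stood apart from the other WT mice, at up to 5.57 CPM. Its fitted log2 change was -0.04 (SE 0.12, adjusted p = 0.886), and it was 0.05 without WT female 1 (adjusted p = 0.839).

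**Figure D3:**
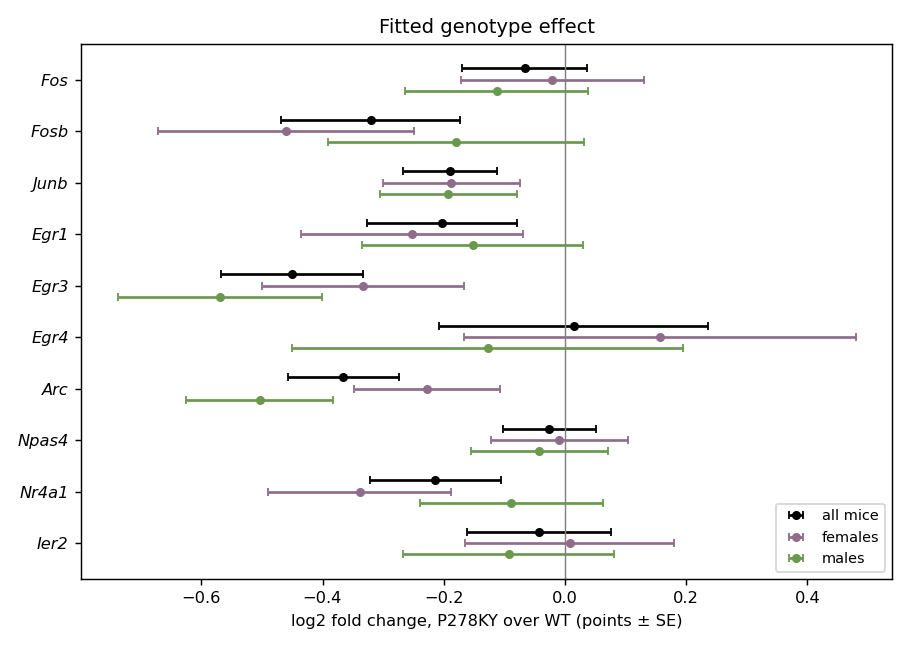
Fitted log2 fold change of P278KY over WT for each gene (points ± SE) over all mice, in females and in males. Arc (-0.37) and Egr3 (-0.45) are the called genes, and Egr4, Fos, Npas4 and Ier2 lie within 1 SE of 0 over all mice.

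In a model with a mean for each of the 4 groups, no member was called in either sex, where 0.573% of all tested genes were called in females and 1.55% in males. At an unadjusted p under 0.05 there were 2 members in females (Fosb and Nr4a1) and 2 in males (Arc and Egr3), where 12.4% and 14.3% of all tested genes had such a p. Arc had a log2 change of -0.23 in females (SE 0.12, adjusted p = 0.484) and -0.50 in males (SE 0.12, adjusted p = 0.0685). Egr3 had a log2 change of -0.33 in females (SE 0.17, adjusted p = 0.454) and -0.57 in males (SE 0.17, adjusted p = 0.130). Fosb and Nr4a1 had the larger changes in females, with -0.46 (SE 0.21) and -0.34 (SE 0.15), against -0.18 (SE 0.21) and -0.09 (SE 0.15) in males. None of these differences between the sexes passed the test of the interaction itself, in which the lowest adjusted p of the 10 genes was 0.999884. No gene of the 17980 passed that test, so the background is 0.0%, while 665 genes (3.7%) and 0 of the 10 members had an unadjusted p under 0.05, and the Wald test of DESeq2 called 61 genes and 0 members. In the comparison of females with males over both genotypes, 0 of the 10 passed and 0.089% of all tested genes did, and at an unadjusted p under 0.05 the count was 0 members and 8.95% of all tested genes. The largest fitted sex difference was a log2 change of 0.21 in Ier2 (SE 0.12, adjusted p = 0.635).

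From mouse to mouse the 10 genes moved together in part. Of their 45 pairs, 34 had a Pearson's r above 0 over the 12 mice, with a median of 0.26. After the group means were taken out 32 had, with a median of 0.17. These pairs share their libraries and are given as a description. Besides Fos and Egr1, the highest values were 0.879 for Junb and Nr4a1 and 0.805 for Egr3 and Arc, and with the group means taken out they were 0.891 and 0.166. In the latter setting Arc had negative values with Junb (-0.738), Nr4a1 (-0.556), Egr1 (-0.540), Ier2 (-0.480), Fos (-0.344) and Fosb (-0.141). Besides Egr3, it had low positive values with Egr4 (0.184) and Npas4 (0.133). P278KY female 9 was the lowest of 12 mice for 4 of the genes (Fos, Junb, Egr1 and Nr4a1) and above 9 of the other mice for Arc. WT female 2 was the highest for 4 (Fosb, Egr1, Egr3 and Egr4), and WT female 1 for 3 (Junb, Nr4a1 and Ier2). WT female 1 also had the highest summed level of the 12 endothelial markers, 517.9 CPM, against 343.0 to 382.4 CPM in P278KY mice and 331.5 to 415.5 CPM in the other WT mice, and the part of vessel or muscle RNA in its values was not tested. P278KY female 4 had the highest Fos and the second highest Ier2 of all mice.

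**Figure D4:**
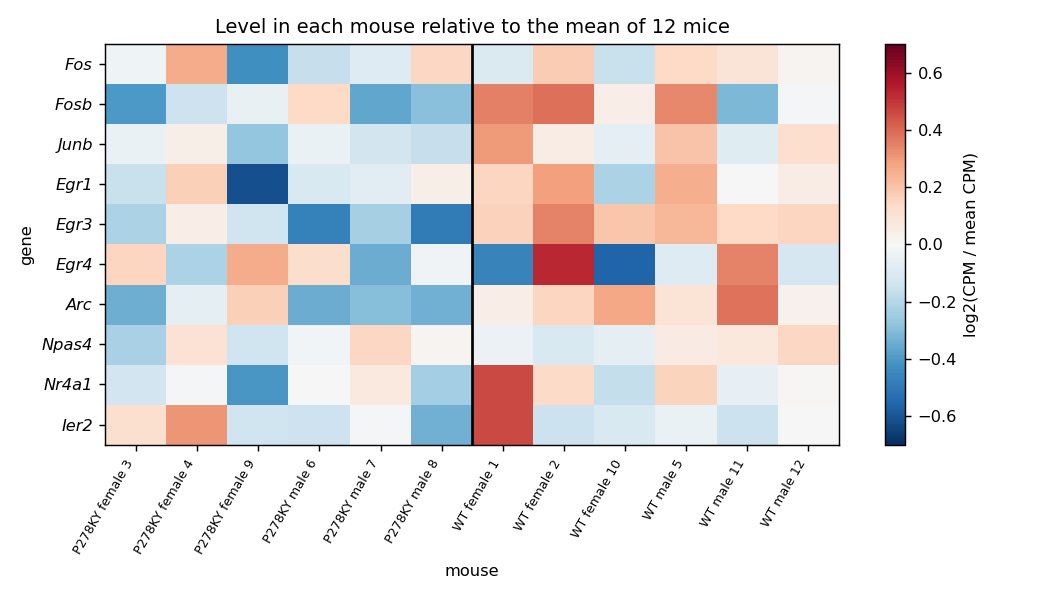
Level of each gene in each mouse as log2 of its CPM over the mean of the 12 mice, with red above and blue below the mean and P278KY mice left of the line. Egr3 is below its mean in 5 of the 6 P278KY mice and above it in all 6 WT mice, and P278KY female 9 is low for Fos, Junb, Egr1 and Nr4a1 and high for Arc.

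Fos was compared with each of the other 9 genes across the 12 mice, on log2 CPM, and only its relation with Egr1 passed. Pearson's r of Fos and Egr1 was 0.864 (permutation p = 0.000670, adjusted over the 9 relations 0.00603) and Spearman's rho was 0.783 (permutation p = 0.00420, adjusted 0.0378). Without mice 9 and 4, the 2 farthest from the median of Fos, r was 0.710. It was 0.941 within the 6 P278KY mice and 0.732 within the 6 WT mice, so the relation had the same sign in each genotype. Fos and Arc had an r of -0.04 (permutation p = 0.910) and a rho of -0.02 (permutation p = 0.957). The other 7 relations had an r between 0.01 and 0.41 and adjusted p-values of 0.599 to 0.977. Fos and Egr4 had an r of -0.59 within P278KY mice and of 0.881 within WT mice, 6 mice each, and that difference was not tested.

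**Figure D5:**
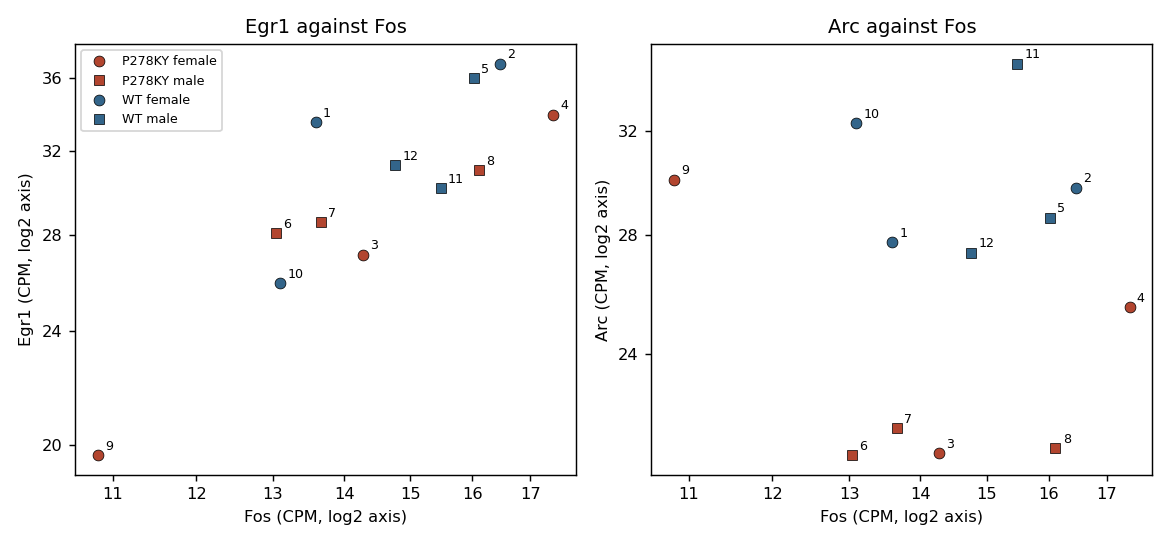
CPM of Egr1 (left) and Arc (right) against CPM of Fos in 12 mice, on log2 axes, with colours for genotype, circles for females and squares for males. Egr1 rises with Fos over all mice (r = 0.864), while Arc does not (r = -0.04) and splits by genotype apart from P278KY female 9.

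The genes whose pattern over the 12 mice was most like the mean pattern of the 10 were Bahd1 (r = 0.920), 2510039O18Rik (r = 0.904) and Tpd52l1 (r = 0.894), picked as the highest of all tested genes and therefore given with no p. Acan, which encodes the perineuronal net protein aggrecan, was ninth (r = 0.847). Among the 10 most alike, Acan (log2 change -0.42, SE 0.07, adjusted p = 0.00388), Tpd52l1 (-0.48, SE 0.12, adjusted p = 0.0406) and Scx (-0.33, SE 0.08, adjusted p = 0.0399) were themselves called lower in P278KY mice, and the other 7 were not called. Of all tested genes 2.95% were called lower. The mean pattern holds the genotype difference of the 10 genes, so the pick itself favoured genes lower in P278KY mice, and these calls are a description only.

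The files list a length for each gene and mouse that moves with the mix of transcripts. It moved for Fos, which has 4 transcripts in the files, between 1751 and 2031 bases in P278KY mice and between 1815 and 1976 bases in WT mice, with overlapping ranges. Egr1, with 2 transcripts, ranged from 3169 to 3222 bases in P278KY mice and from 3154 to 3221 in WT mice, and Arc, with 2, stayed at about 3055 bases in every mouse. The other 7 genes have 1 transcript in the files, so nothing can be said of their isoforms.

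Other early genes showed no common shift. None of the other 20 early transcription factor genes, among them Jun, Jund, Egr2, Nr4a2 and Nr4a3, was called, and their median log2 change was -0.07. Nr4a3, of the same receptor family as Nr4a1, was picked out on seeing its values. It was at 5.26 to 7.14 CPM in P278KY mice and at 3.31 to 5.86 CPM in WT mice (log2 change 0.46, SE 0.14, adjusted p = 0.0697). Of 20 early genes for enzymes, adaptors and regulators 2 were called higher, where 2.36% of all tested genes were, and 0 were called lower. These were Errfi1, an inhibitor of EGF receptors, at 64.5 to 84.6 CPM in P278KY mice and 56.1 to 61.4 CPM in WT mice (0.36, SE 0.06, adjusted p = 0.00357), and Gadd45g, a growth arrest gene, at 15.7 to 18.6 CPM in P278KY mice and 11.6 to 13.9 CPM in WT mice (0.38, SE 0.06, adjusted p = 0.00383). Both kept their call in all 12 fits with 1 mouse left out, but not without mice 9 to 12 (adjusted p = 0.0909 for Errfi1 and 0.0947 for Gadd45g), and Errfi1 also missed it without mice 7, 10 and 11 (0.0664). Errfi1 also responds to glucocorticoids. The summed level of 16 glucocorticoid-responsive genes, Errfi1 among them, was 850.2 to 1397 CPM in P278KY mice and 838.1 to 1050 CPM in WT mice. Among mice 1 to 8 this sum was 1097 to 1397 CPM in P278KY mice and 870.7 to 1050 CPM in WT mice, without overlap. Among mice 9 to 12 it was 850.2 CPM in the P278KY mouse and 838.1 to 853.4 CPM in the WT mice. Its part was not tested.

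Of 15 genes of the slower second wave, 1 was called, Crh, the corticotropin-releasing hormone gene, at 0.729 to 1.35 CPM in P278KY mice and 0.451 to 0.640 CPM in WT mice (log2 change 0.93, SE 0.19, adjusted p = 0.0147). The background is 5.32% of all tested genes called in either direction. Crh missed the threshold without mice 7, 10 and 11 (adjusted p = 0.149) and without mice 9 to 12 (0.300). Bdnf, the neurotrophin gene best known as a target of neuronal activity, had a log2 change of 0.22 (SE 0.12, adjusted p = 0.348). The median over the 15 was 0.04.

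Of 38 genes of the signalling route from calcium to the early gene promoters, 7 were called higher and 1 lower, where 2.36% of all tested genes were called higher and 2.95% lower. The median log2 change was 0.05, and 10 of the 38 lay below 0. Their mean log2 CPM was 6.303 to 6.361 in P278KY mice and 6.261 to 6.301 in WT mice, without overlap but nearly touching. Their summed level did overlap, at 4585 to 4781 CPM in P278KY mice and 4351 to 4690 CPM in WT mice. Crebbp, the coactivator of CREB, was at 78.0 to 86.8 CPM in P278KY mice and at 67.5 to 73.8 CPM in WT mice (0.20, SE 0.03, adjusted p = 0.00499). Cacna1c, an L-type calcium channel gene, was at 44.5 to 50.0 CPM in P278KY mice and at 37.2 to 42.4 CPM in WT mice (0.21, SE 0.04, adjusted p = 0.0104). Both calls were kept in all 12 fits with 1 mouse left out. Crebbp missed the threshold without mice 7, 10 and 11 (adjusted p = 0.0774) and without mice 9 to 12 (0.141), and Cacna1c without mice 1 to 4 (0.0693) and without mice 9 to 12 (0.143). The NMDA receptor subunit gene Grin2a (0.42, SE 0.10, adjusted p = 0.0296) and the kinase gene Camk4 (0.13, SE 0.03, adjusted p = 0.0297) rose, and Mapk3, the gene of ERK1, fell (-0.14, SE 0.04, adjusted p = 0.0336). With 1 mouse left out, Grin2a missed the threshold in 7 fits (highest adjusted p = 0.0791), Camk4 in 9 (0.0735) and Mapk3 in 7 (0.0845), each highest without P278KY male 6. All 3 missed it without P278KY female 4, P278KY males 6 and 7 and WT males 11 and 12.

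Of 17 genes for partners and repressors of the early factors, 2 rose and 1 fell, beside 2.36% and 2.95% of all tested genes, and the median log2 change was 0.04. Nab1, a corepressor of EGR factors, was at 40.0 to 46.1 CPM in P278KY mice and at 46.5 to 52.3 CPM in WT mice (log2 change -0.17, SE 0.04, adjusted p = 0.0424). With 1 mouse left out it missed the threshold in 8 fits, and without P278KY male 6 the adjusted p was 0.106. Its relative Nab2 was at 9.53 to 12.3 CPM in P278KY mice and at 11.3 to 13.7 CPM in WT mice and did not pass (-0.16, SE 0.07, adjusted p = 0.261). Atf4 (0.27, SE 0.03, adjusted p = 0.000621) and Ddit3 (0.37, SE 0.06, adjusted p = 0.00212), which encode stress factors that can pair with AP-1 or CREB family proteins, rose and kept their calls in all 12 fits. Without mice 9 to 12 both missed the threshold (adjusted p = 0.0598 for Atf4 and 0.122 for Ddit3).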

How the data were processed

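The submitters' processing notes name Bowtie2 2.2.0 and RSEM 1.2.12. A genome build and annotation were not given in the sources used. Each deposited file holds, for every gene, an expected count that RSEM estimated. It also holds the authors' TPM, in which length and library size are scaled out, and a deposited FPKM column that was not used. The deposited lengths, per the file headers, are weighted by transcript abundance.

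Expected counts were rounded, filtered with filterByExpr over the 4 groups of 3 mice and normalised with TMM factors, from which CPM values follow. Genotype and sex effects came from edgeR 4.0.16 (quasi-likelihood F test, robust, R 4.3.3) in an additive model over 12 mice, and effects within sex from 4 group means, with Benjamini-Hochberg adjustment over 17980 genes and a threshold of 0.05. SE was taken as |log2 change| / sqrt(F). log2 CPM used a prior count of 2. Correlations used 100000 resamples. limma 3.58.1, DESeq2 1.42.0, log2(TPM + 1) and log2(TPM + 0.1), other filters, left-out mice and sets of mice were alternatives. Positions are from GENCODE M21 (GRCm38) by gene identifier. Named genes were the 10 members, up to 4 called genes per list and direction, and the 10 most alike in pattern. Members, lists and the sets of mice were chosen with earlier results of these data known. Few counts limit precision for Egr4, Egr3 and Fosb, the members with the largest counting error.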

Additional observations from a re-analysis of the deposited data

Results flagged for a closer look

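Ier2 in WT female 1, at 7.67 CPM, lay far from the other 5 WT mice, whose highest value was 5.57 CPM. It was the 1 outlying mouse found when 20 sets of values (10 genes in each genotype of 6 mice) were looked at, and chance gives about 1 in 20. This library also had the highest summed levels of skeletal muscle, endothelial and red blood cell genes (12065, 517.9 and 5446 CPM), and their part in the value was not tested.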

How the results depend on the processing

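No paired analysis was possible because the mouse numbers are not shared between groups. The 10 genes had a median log2 change between -0.24 and -0.13 over the 12 fits with 1 mouse left out. In those fits 0 to 2 members were called, 542 to 1385 genes for genotype, 32 to 156 in females, 76 to 431 in males, with 0 to 1 member in males, 0 to 42 for the interaction and 11 to 17 for sex. The number of members called was 0 without a filter, without mice 1 to 4, without mice 7, 10 and 11 and without mice 9 to 12. It was 1 with the Wald test of DESeq2 (Arc), 1 on log2(TPM + 1) and 1 on log2(TPM + 0.1) (Egr3 in both) and 1 without sex in the model (Arc). It was 3 with mice 9 to 12 as a further term (Arc, Egr1 and Nr4a1), with a median log2 change of -0.27. In males 1 member was called by DESeq2, by limma voom and in a fit on males alone, against 0 in the fit on all groups. The count of genes called for genotype, 956, was 1617 by DESeq2, 1467 by voom, 1606 on log2(TPM + 1), 1622 on log2(TPM + 0.1), 557 without mice 1 to 4, 253 without mice 7, 10 and 11 and 84 without mice 9 to 12. On log2(TPM + 1) the split was 1358 higher and 248 lower, against 425 and 531 on the counts, and the median of all genes was 0.06 against 0.00. The count in females, 103, was 455 by DESeq2, 174 by voom and 68 in females alone, and the count in males, 279, was 728 by DESeq2 and 602 by voom. The interaction count, 0, was 61 by DESeq2, 2 by voom, 1 without a filter, 4 with the stricter filter and 2 on log2(TPM + 1). The sex count, 16, was 208 by DESeq2 and 9 without mice 1 to 4. The cause of these moves was not tested, though fits without mice also have fewer samples. The sign turned for 3 of the 8 members not called. Ier2 was at 0.0327 by voom, 0.0336 on log2(TPM + 1) and 0.0374 on log2(TPM + 0.1), Npas4 at 0.0356 and 0.0446 on the same TPM scales and 0.00953 without mice 9 to 12, and Egr4 at -0.0683 without mice 9 to 12. With 1 mouse left out Egr4 ranged from -0.0884 to 0.18 and Ier2 from -0.10 to 0.0509. Egr4 and Crh did not pass the stricter filter. The direction of Arc and of Egr3 was the same under all 25 alternatives each.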
